A study of Arabidopsis thaliana with 8 samples.

Results

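The genes examined here are targets of active DNA demethylation in Arabidopsis thaliana: EPF2 (AT1G34245), AT1G26380, AT1G26390, AT1G26400, AT1G26410, AT1G62760 and AT1G03890. They were chosen by name, for a role known from other work, and are 7 of the 37899 genes annotated on chromosomes 1 to 5. All lie on chromosome 1, at 4 loci, because AT1G26380 to AT1G26410 stand side by side. Of the 238296 windows in which counts were taken, 92 overlapped a member or the 3 kb on either side of it.

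Plants remove cytosine methylation through DNA glycosylases (ROS1, DME, DML2 and DML3) that cut out the methylated base. Base excision repair, with enzymes such as ZDP and ARP, then restores the site. The histone acetyltransferase IDM1 helps ROS1 reach some of its targets, and MBD7, a protein with methyl-CpG-binding domains, is a partner of IDM1, IDM2 and IDM3. Where demethylation fails, promoters and nearby repeats gain methylation and some of these genes are silenced. EPF2, a secreted peptide that limits entry into the stomatal lineage, is one such gene known from ros1 mutants.

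MBD7 was mapped by chromatin immunoprecipitation and sequencing (ChIP-seq) in seedlings 14 days old, grown at 23 °C with 16 h of light. One line carried proMBD7::gMBD7:4xMYC, the genomic MBD7 gene with 4 Myc tags under its own promoter, and the other plants were labelled WT, with a 35S-SUC2 construct in their library names and no tagged protein named. Each genotype gave 2 Myc ChIP libraries and 2 input libraries of chromatin before precipitation, so 8 libraries formed 4 groups: WT input, WT ChIP, MBD7 input and MBD7 ChIP. The question was where tagged MBD7 sits on chromatin. The tagged plants came from 1 line, and whether they also kept an untagged MBD7 is not given in the sources used here. The labels name an Invitrogen antibody for WT ChIP and a Millipore antibody for MBD7 ChIP, but only the Invitrogen one stands in the extraction protocol, so whether the antibodies differed is unclear. If they did, the genotype and the antibody cannot be told apart between the ChIP groups. No label says that the 2 libraries of a group came from separate cultures, so the p-values reflect how these libraries scatter, a spread that may be only technical.

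Depth set what could be seen at these loci. Input libraries held 19224696 to 31459707 counts and MBD7 ChIP 23761267 and 25846940, against 4971029 and 7450486 in WT ChIP. In a median window of the 92, the inputs had 45 to 67 counts, MBD7 ChIP had 13 and 14, and WT ChIP had 4 and 3. Log2(count + 1) values of the replicates over these windows correlated best in the inputs (r = 0.974 for WT, 0.943 for MBD7) and less in the ChIP libraries (0.775 for MBD7, 0.623 for WT), as a description across windows that overlap and are not independent. MBD7 input was above WT input over the body of MBD7 (AT5G59800), by 2.94 ± 0.15 (SE) on the log2 scale. The adjusted p from edgeR was 2.41e-08, and whether the tagged construct gave this difference was not tested.

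Values below are scaled cpm (counts divided by the scaled library size) per window of 1000 bp, scaled with TMM factors, a scaling that takes most windows as unchanged. A body is the set of windows that overlap a gene, and the lower and upper flanks are the windows within 3 kb on the side of smaller and of larger coordinates. Strand was not used here, so neither flank is called a promoter. A region or window passed where edgeR's quasi-likelihood test gave an adjusted p under 0.05 (two-sided, Benjamini-Hochberg adjustment over all 113686 regions or all 232963 windows tested), and differences are log2 fold changes with SE. Regions were fitted apart from windows, with TMM factors of their own. The cpm printed for regions use the factors of the windows, so a region's levels and differences need not match exactly. The members' 21 regions all entered the test, as did 90 of their 92 windows. AT1G26400's upper flank and AT1G26410's lower flank are the same 6 windows, and flanks within the cluster hold parts of neighbouring members.

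In MBD7 ChIP against MBD7 input, 2 of the members' 21 regions were higher, where 17.8% of all regions were, and 1 was lower, where 15.2% were. Those higher were the upper flank of EPF2 and the body of AT1G62760, and the body of AT1G03890 was lower. The median over the 21 regions was 0.16, with 15 above 0, against -0.15 over all regions, of which 37.4% were above 0. By windows, 5 of 90 were higher (18.1% of all windows) and 6 were lower (6.19%), with a median of 0.05 against -0.10 over all windows. The 5 higher windows lay at EPF2, AT1G26380 and AT1G62760, and the 6 lower ones at AT1G03890 and its neighbours. The share of higher windows among the members was below that of all windows in this comparison, while the members' median was above. These windows overlap and lie at 4 loci, and the shares were not tested against each other. The balance of calls over all regions moved with the scaling, from 20194 higher and 17290 lower with TMM to 22093 and 8481 with DESeq2's size factors and 5293 and 100443 with library size alone.

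**Figure D1:**
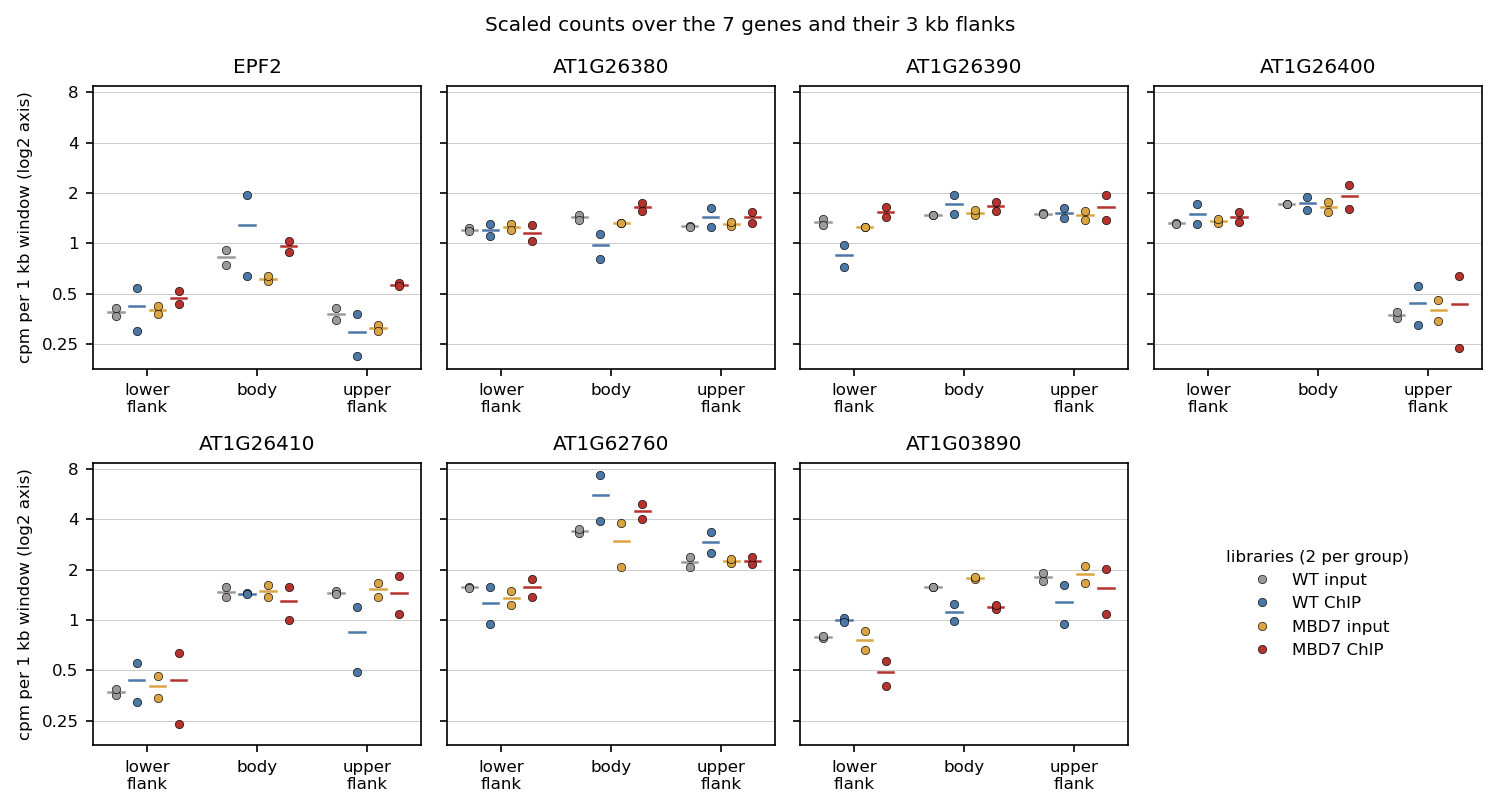
Scaled counts (cpm per 1 kb window, log2 axis) over the lower flank, body and upper flank of each of the 7 genes. Each point is 1 library, the bar is the mean of the 2 libraries of a group, and colours give the 4 groups. Both MBD7 ChIP points stand above the other 6 in the EPF2 upper flank and below the other 6 in the AT1G03890 lower flank, while the WT ChIP points are spread widely over the EPF2 and AT1G62760 bodies.

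Set against the precipitation from WT plants, no member region was higher with TMM scaling over all 8 libraries. In MBD7 ChIP against WT ChIP, 0 of 21 regions were higher (8.55% of all regions) and 1 was lower (2.85%), the lower flank of AT1G03890. At an unadjusted p under 0.05 there were 4 regions, and DESeq2 called 1 higher, the lower flank of AT1G26390, and 1 lower. Of 90 windows, 0 were higher (5.78%) and 1 was lower (0.491%), with 0 by DESeq2. Among the 88 of them with any count in WT ChIP, 6 had an unadjusted p under 0.05. The 95% intervals of the 21 differences reached as far as -1.85 and 1.86.

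The interaction between genotype and precipitation, which takes the WT change from the MBD7 change, gave 0 of 21 regions (10.8% of all regions in either direction), with 4 at an unadjusted p under 0.05 and 2 higher by DESeq2. Of 90 windows, 0 were higher (6.54%) and 1 was lower (0.573%), with 0 by DESeq2. Among the 88 of them with any count in WT ChIP, 7 had an unadjusted p under 0.05. WT ChIP against WT input gave 0 regions (10.6%), with 3 at an unadjusted p under 0.05 and 1 by DESeq2, and 1 higher window (5.13%), which lay over AT1G62760. Between the inputs, 0 regions passed (0.0106%) and 0 windows (0.0197%). There 0 regions and 6 windows had an unadjusted p under 0.05, and DESeq2 called none of either, giving no adjusted p for any of these regions. These comparisons share libraries, so their values are given side by side and are not independent of each other.

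**Figure D2:**
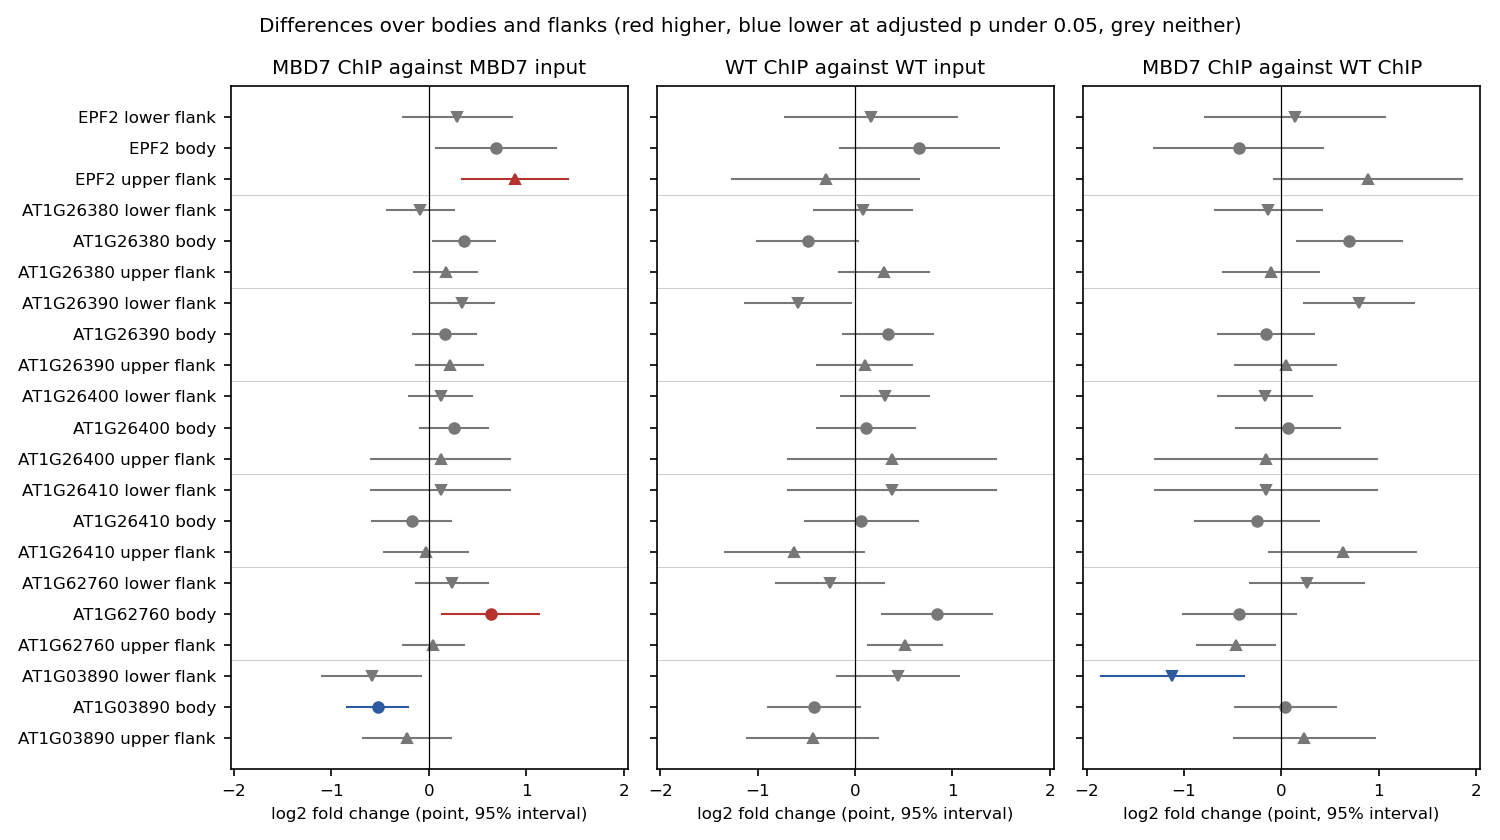
Log2 fold change of every region in MBD7 ChIP against MBD7 input, WT ChIP against WT input and MBD7 ChIP against WT ChIP, with 95% intervals. Points are bodies (circles) and lower or upper flanks (triangles pointing down or up), red where higher and blue where lower at an adjusted p under 0.05, all with TMM scaling. Red points appear only for the EPF2 upper flank and the AT1G62760 body, blue ones only for the AT1G03890 body and lower flank, and with library size as the only scaling every value of the left panel lies below 0.

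EPF2 had the lowest body level of the members in all 4 inputs, and its upper flank and body had the largest positive differences of the 21 regions between MBD7 ChIP and MBD7 input. Its upper flank, where no other gene is annotated, had 0.352 and 0.410 cpm per window in WT input and 0.214 and 0.380 in WT ChIP. MBD7 input had 0.327 and 0.300, and MBD7 ChIP had 0.578 and 0.557. Both MBD7 ChIP libraries stood above the other 6, and the WT ChIP values spanned those of MBD7 input. The difference of MBD7 ChIP against its input was 0.89 ± 0.26 (adjusted p = 0.0135), at percentile 94.7 of the upper flanks of protein-coding genes. Against WT ChIP it was 0.89 ± 0.46 and the interaction was 1.19 ± 0.51, neither of which passed (adjusted p = 0.236 and 0.156). The WT change in the same windows was -0.30 ± 0.46.

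The call in the upper flank of EPF2 needed both inputs of the tagged line. Without MBD7 input replicate 1 it was 0.96 (adjusted p = 0.0561), and without replicate 2 it was 0.83 (adjusted p = 0.0868). With every second window only it was 0.81 (adjusted p = 0.063), and with flanks of 2 kb it was 0.96 (adjusted p = 0.0548). With library size as the only scaling it was -0.56 (adjusted p = 0.0526), against a median of -1.60 over all regions, and stood 1.04 above that median.

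Within the upper flank of EPF2, 1 window passed, from 12476501 to 12477500, at the far end of the 3 kb. Its counts were 45 and 46 in WT input, 3 and 3 in WT ChIP, 46 and 33 in MBD7 input and 20 and 16 in MBD7 ChIP, a difference from MBD7 input of 0.82 ± 0.29 (adjusted p = 0.0321). It did not pass in 6 of 14 other settings, among them DESeq2 and each one without a library of MBD7 input, and with library size alone it was lower, at -1.24 (adjusted p = 7.26e-05). The next window outward, from 12477001, passed as well at 0.80. Nearer the gene, the window from 12475001 had 0 counts in both WT ChIP libraries and 4 and 4 in MBD7 ChIP, so no fold against WT ChIP is given there.

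The body of EPF2 had 0.916 and 0.747 cpm per window in WT input, 0.642 and 1.95 in WT ChIP, 0.595 and 0.639 in MBD7 input and 0.888 and 1.03 in MBD7 ChIP. MBD7 ChIP stood above its own input in both libraries, whereas 1 WT ChIP library was at the level of MBD7 input and the other was above every other library. The difference from MBD7 input was 0.69 ± 0.29 and did not pass (adjusted p = 0.0786). Without either WT ChIP library, which changes the filter, the scaling and the shared spread but not the libraries compared, it was 0.77 and passed (adjusted p = 0.0119 and 0.0122). The WT change over the body was 0.66 ± 0.39; it was 1.35 without WT ChIP replicate 1 (adjusted p = 0.0293) and -0.28 without replicate 2. The interaction was 0.03 ± 0.47 (adjusted p = 0.981).

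MBD7 input was also lower than WT input over the EPF2 body by value, at -0.47 ± 0.24 (unadjusted p = 0.0674, adjusted p = 1). That value lay at percentile 0.211 of protein-coding bodies in the comparison of the inputs. The lower flank of EPF2, which holds the pseudogene AT1G34240, had values of 0.433 and 0.517 in MBD7 ChIP and 0.379 and 0.426 in MBD7 input. Those groups did not overlap, yet the difference was 0.29 ± 0.27 and did not pass (adjusted p = 0.416). Over all 15 tested windows of the locus the differences from MBD7 input ran from -0.46 (from 12469001) to 1.28 (from 12473501), with 12 above 0.

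The cluster AT1G26380 to AT1G26410 encodes berberine bridge enzyme-like (BBE-like) proteins, a family of FAD-linked oxidases. AT1G26380 makes an indole carbonyl nitrile defence compound in response to pathogens. No region of these genes passed in any comparison with TMM scaling over all 8 libraries, and their bodies had similar levels in the inputs, from 1.32 to 1.66 cpm per window on average in MBD7 input. In MBD7 ChIP the means (SD, n = 2) were 1.92 ± 0.44 for AT1G26400, 1.66 ± 0.15 for AT1G26390, 1.65 ± 0.14 for AT1G26380 and 1.29 ± 0.41 for AT1G26410. Neighbours in that order differed by less than the spread of their libraries.

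AT1G26380 was the member of the cluster with the largest body difference. Its body had 1.49 and 1.38 cpm per window in WT input, 0.814 and 1.14 in WT ChIP, 1.32 and 1.32 in MBD7 input and 1.75 and 1.55 in MBD7 ChIP. MBD7 ChIP was above all 6 other libraries and WT ChIP was below all 6 others. Against MBD7 input the difference was 0.36 ± 0.15, against WT ChIP 0.70 ± 0.26 and in the interaction 0.84 ± 0.29, and none passed (adjusted p = 0.0757, 0.091 and 0.0693). Without WT ChIP replicate 2 the latter were 1.03 and 1.16, and both passed (adjusted p = 0.039 and 0.0264), whereas without replicate 1 they were 0.52 and 0.66 and did not (adjusted p = 0.315 and 0.222). The difference from MBD7 input was 0.47 with DESeq2 and passed (adjusted p = 0.0413). It also passed with DESeq2's size factors (0.47, adjusted p = 0.0273) and with only the groups compared (0.46, adjusted p = 0.0257). It did not pass without the filter, with a replicate block, with every second window or with flanks of 2 kb. With library size as the only scaling it was -1.09.

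Both passing windows of the cluster lay at the lower end of AT1G26380. That from 9125501, which touches AT1G26370, had 24 and 21 counts in WT input, 3 and 3 in WT ChIP, 22 and 14 in MBD7 input and 10 and 12 in MBD7 ChIP, and differed from MBD7 input by 1.24 ± 0.39 (adjusted p = 0.0148). That from 9126501, inside the gene, had 67 and 47 counts in MBD7 input and 24 and 26 in MBD7 ChIP, with 0.77 ± 0.24 (adjusted p = 0.015). Against WT ChIP they differed by 0.08 and 0.85, and neither passed. In the first window WT ChIP and MBD7 ChIP had similar scaled levels, 0.771 and 0.976 cpm against 0.867 and 0.955, while in the second both MBD7 ChIP values, 2.08 and 2.07, were above 0.771 and 1.63 in WT ChIP. Neither window passed when any 1 library of MBD7 input or MBD7 ChIP was left out, and both had values below 0 with library size as the only scaling.

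AT1G26390's lower flank, which is made largely of AT1G26380's body, had values close to that body's. It had 1.66 and 1.43 cpm per window in MBD7 ChIP, 1.26 and 1.25 in MBD7 input and 0.728 and 0.976 in WT ChIP. Its interaction, 0.93 ± 0.30, had the lowest adjusted p of the 21 regions (0.0561), and with DESeq2 it was 0.99 and passed (adjusted p = 0.0379). The bodies of AT1G26390 and AT1G26400 differed from MBD7 input by 0.16 ± 0.15 and 0.26 ± 0.17. Without MBD7 ChIP replicate 2 the latter was 0.57 and passed (adjusted p = 0.0289).

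AT1G26410, the last gene of the cluster, differed between the MBD7 ChIP replicates. Its body had 1.58 and 1.00 cpm per window in MBD7 ChIP, against 1.38 and 1.62 in MBD7 input. The groups overlapped. The gene-free stretch between AT1G26400 and AT1G26410 had 0.635 and 0.239 in MBD7 ChIP, 0.557 and 0.325 in WT ChIP and 0.463 and 0.343 in MBD7 input. All groups overlapped there, and the 95% interval of the MBD7 difference ran from -0.59 to 0.83.

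AT1G62760, which encodes a protein of the plant invertase and pectin methylesterase inhibitor family, had the highest body level of the 7 genes in every library. Its body had 3.31 and 3.503 cpm per window in WT input, 7.30 and 3.90 in WT ChIP, 3.81 and 2.09 in MBD7 input and 4.02 and 4.93 in MBD7 ChIP. MBD7 ChIP stood above MBD7 input in both libraries, but 1 input library was close to the ChIP values and the other far below. The difference was 0.63 ± 0.24 (adjusted p = 0.0474), and it was 0.27 without MBD7 input replicate 2 (adjusted p = 0.495) but 1.15 without replicate 1 (adjusted p = 0.00585). It did not pass without MBD7 ChIP replicate 2 either (0.56; adjusted p = 0.195), nor without either WT input library. With DESeq2 it was 0.75 (adjusted p = 0.0855), and with library size as the only scaling -0.81, which is 0.79 above the median of all regions.

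In WT plants the same body had a difference from input of 0.84 ± 0.27 (adjusted p = 0.0532), larger by value than that of the tagged line. The interaction was -0.21 ± 0.35 (adjusted p = 0.784) and MBD7 ChIP against WT ChIP was -0.43 ± 0.28 (adjusted p = 0.36). The mean level in WT ChIP was 5.6 ± 2.4 cpm per window and in MBD7 ChIP 4.48 ± 0.65 (SD, n = 2), with 1 WT library above both MBD7 ChIP libraries and 1 below both. Without WT ChIP replicate 2 the WT difference was 1.201 and passed (adjusted p = 0.00387).

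**Figure D3:**
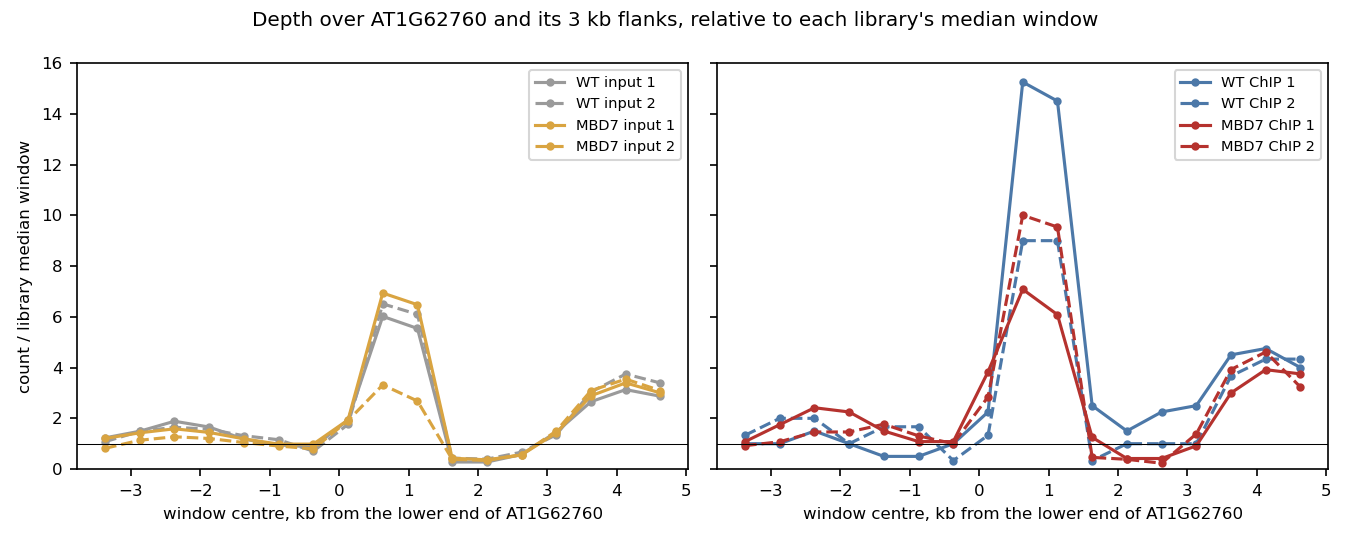
Counts per window over AT1G62760 and its 3 kb flanks, divided by each library's median window count, for the 4 input libraries (left) and the 4 ChIP libraries (right). The x axis is the distance of the window centre from the lower end of the gene in kb. Over the windows from 23237501 and 23238001 every library is at more than 2 times its median, MBD7 input replicate 2 is the lowest and WT ChIP replicate 1 the highest.

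The counts of AT1G62760 were highest in the windows from 23237501 and 23238001, where the inputs themselves were deep. Their mean input counts were 5.80 and 5.32 times those of the median window, and 2.40% and 2.76% of all windows had as much input or more. Over the first of these windows, counts relative to the library's median window were 6.02 and 6.51 in WT input, 6.94 and 3.32 in MBD7 input, 15.25 and 9 in WT ChIP and 7.08 and 10 in MBD7 ChIP. MBD7 input replicate 2 was the lowest of the 8 there and stood apart from the other 3 inputs, which were close together. How reads with several alignments were counted is not given in the sources used here, and its part in this depth was not tested.

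In MBD7 ChIP against MBD7 input, the windows from 23237001 and 23237501 passed at 0.65 ± 0.20 and 0.58 ± 0.22 (adjusted p = 0.0113 and 0.0487). Neither passed with DESeq2 or without MBD7 input replicate 2, WT input replicate 1 or WT input replicate 2. The first of them, at the lower end of the gene, had 2.20 and 2.19 cpm in MBD7 input against 3.99 and 2.94 in MBD7 ChIP. WT ChIP had 2.31 and 1.30 there, so both MBD7 ChIP libraries were above all others in this window, and the difference from WT ChIP was 0.88 ± 0.40 (adjusted p = 0.233).

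At and past the upper end of AT1G62760 the mean of WT ChIP was above that of MBD7 ChIP, on few counts. The window from 23238501, the last over the gene, was higher in WT ChIP than in WT input by 1.99 ± 0.62 (adjusted p = 0.0432), on 10 and 1 counts, and did not pass without WT ChIP replicate 1 or with DESeq2. The window from 23239501, which holds no gene, had 35 and 34 counts in WT input, 9 and 3 in WT ChIP, 35 and 25 in MBD7 input and 5 and 3 in MBD7 ChIP. It was lower in MBD7 ChIP, at 0.433 and 0.239 cpm, than in WT ChIP, at 2.31 and 0.976, a difference of -2.36 ± 0.65 (adjusted p = 0.0154). It did not pass without WT ChIP replicate 1, without MBD7 ChIP replicate 2 or with DESeq2.

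AT1G03890, a gene of the 12S globulin (cruciferin) family of seed storage proteins, was the only member with a region lower in MBD7 ChIP, with TMM scaling. Its body had 1.58 and 1.58 cpm per window in WT input, 0.985 and 1.25 in WT ChIP, 1.76 and 1.81 in MBD7 input and 1.17 and 1.23 in MBD7 ChIP. Both kinds of ChIP library were below all inputs, and the WT ChIP and MBD7 ChIP values overlapped. The difference from MBD7 input was -0.53 ± 0.15 (adjusted p = 0.0118), at percentile 18.9 of protein-coding bodies. The WT difference was -0.42 ± 0.22 (adjusted p = 0.268), and MBD7 ChIP against WT ChIP was 0.04 ± 0.25 (adjusted p = 0.943). The call in the tagged line was lost in 6 of 16 other settings, where its adjusted p reached 0.126: DESeq2, every second window only, and each setting without a library of MBD7 input or MBD7 ChIP.

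The lower flank of AT1G03890 lies over CRU2 (AT1G03880), another 12S globulin gene. It had 0.784 and 0.797 cpm per window in WT input, 1.03 and 0.976 in WT ChIP, 0.664 and 0.864 in MBD7 input and 0.404 and 0.570 in MBD7 ChIP. MBD7 ChIP was below all 6 other libraries and WT ChIP above all 6 others. The difference from WT ChIP was -1.12 ± 0.35 (adjusted p = 0.0455), on sums of 24 and 18 counts in WT ChIP and 28 and 43 in MBD7 ChIP. The call was lost in 11 of 16 other settings, among them those without either WT ChIP library (-1.002 and -1.055; adjusted p = 0.165 and 0.105), without either input library of either genotype, and without MBD7 ChIP replicate 1 (-0.82; adjusted p = 0.208).

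The 6 lower windows in MBD7 ChIP against MBD7 input all lay at this locus. Those from 986001 and 986501 were over CRU2 (-1.39 ± 0.47 and -1.12 ± 0.42), those from 989501, 990001 and 990501 over AT1G03890 itself, and that from 994001 over ABCI19. The lowest adjusted p of the members, 0.00207, belonged to the window from 990501, which reaches into ABCI18 and had 106 and 62 counts in MBD7 input and 10 and 9 in MBD7 ChIP (-1.18 ± 0.30). That window did not pass without MBD7 ChIP replicate 2. The other 5 did not pass with DESeq2, and the one from 986501 did not pass in 6 of 14 other settings. All 6 body windows of AT1G03890 had values below 0. In the upper flank, over ABCI18 and ABCI19, MBD7 ChIP had 1.08 and 2.02 cpm per window against 1.66 and 2.11 in MBD7 input, and the groups overlapped.

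Flanks were set against bodies in the same library, as a description with no test. For EPF2's upper flank the ratio of flank to body level was 0.650 and 0.539 in MBD7 ChIP and 0.551 and 0.469 in MBD7 input, and the groups overlapped. In AT1G62760's upper flank the ratio was lower in MBD7 ChIP, at 0.535 and 0.481, than in MBD7 input, at 0.578 and 1.11. By kind of window, those in flanks with no gene had a median difference from MBD7 input of 0.40 (17 tested). Member bodies had 0.12 (36) and flanks over another gene -0.14 (37). These kinds were spread unevenly over the loci. In flanks with no gene the median was 0.82 at EPF2 (7 tested), 0.10 in the cluster (8) and -0.45 at AT1G62760 (2). AT1G03890 had no such window, and it held 12 of the 37 in flanks over another gene, with a median of -0.32.

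**Figure D4:**
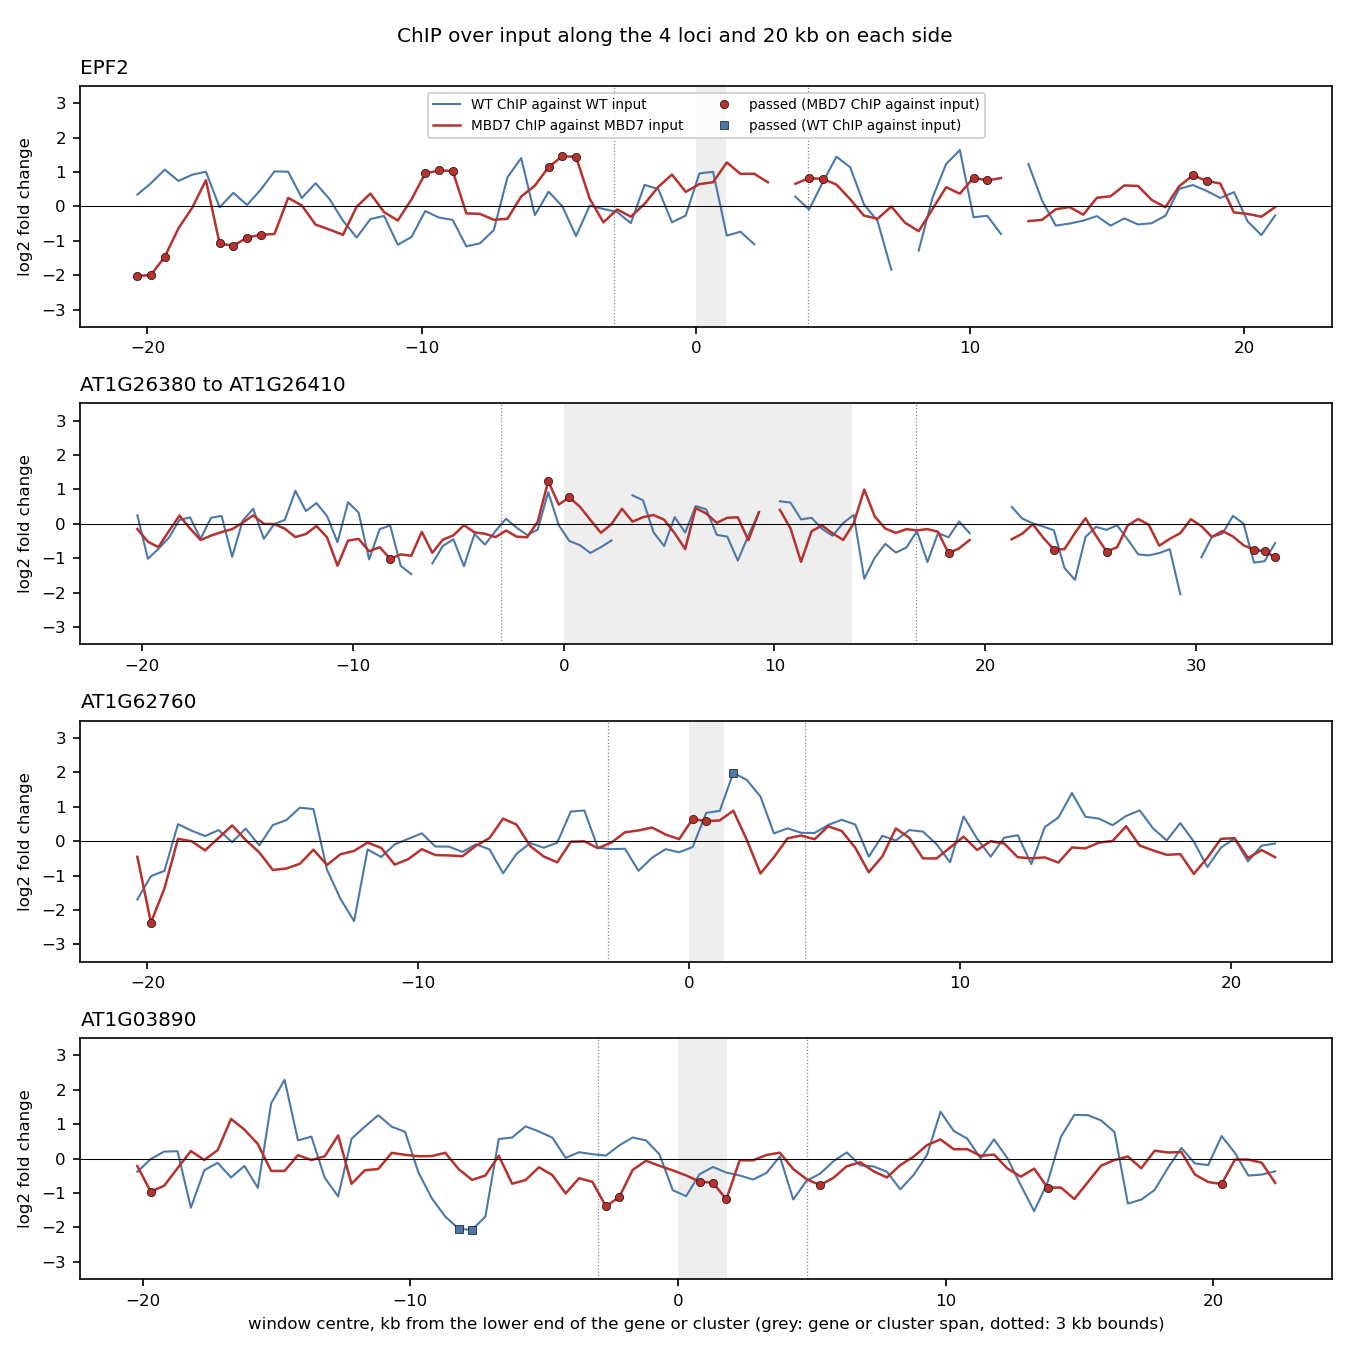
Log2 fold change of ChIP against input in windows of 1 kb along the 4 loci and 20 kb on each side, for WT (blue) and MBD7 (red), against the distance of the window centre from the lower end of the gene or cluster. Filled marks are windows that passed at an adjusted p under 0.05 with TMM scaling, and lines break where a window was not tested or both WT ChIP libraries had 0 counts. The EPF2 panel holds 12 higher red windows, most of them beyond the 3 kb bounds, and the AT1G03890 panel holds none.

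Windows within 20 kb on each side of the loci, those inside the 3 kb bounds included, were counted with no test of the loci against each other. At EPF2, 12 of 82 tested windows were higher in MBD7 ChIP than in MBD7 input and 7 were lower, where 18.1% and 6.19% of all windows were. The same counts were 2 and 7 of 105 around the cluster, 2 and 1 of 85 around AT1G62760 and 0 and 9 of 86 around AT1G03890. The higher windows of the cluster and of AT1G62760 were those inside the 3 kb bounds. Among the windows near EPF2 that passed as higher, the largest differences lay over the pseudogene AT1G34230 and in the next window. Those from 12467001 and 12467501, over AT1G34230, had 1.14 and 1.46, and the next, from 12468001 with no gene, had 1.44. The last of these had 36 and 24 counts in MBD7 input, 14 and 28 in MBD7 ChIP and 4 and 0 in WT ChIP, and its interaction passed at 2.30 (adjusted p = 0.0282). Larger differences in the other direction lay over NAC017, where the windows from 12452001 and 12452501 had -2.03 (adjusted p = 3.72e-05) and -1.99 (adjusted p = 0.00103), with interactions of -2.371 and -2.666.

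The nearest window to EPF2 that was higher in MBD7 ChIP than in WT ChIP as well was over AT1G34220, from 12463501. It had 177 and 141 counts in WT input, 8 and 9 in WT ChIP, 128 and 124 in MBD7 input and 72 and 62 in MBD7 ChIP. These counts come from libraries of unequal depth, and after scaling the differences were 1.03 from input, 1.19 from WT ChIP (adjusted p = 0.0342) and 1.42 in the interaction (adjusted p = 0.0162). It lay 8368 bp from EPF2, while 11.4% of protein-coding genes had such a window within 3 kb and none of the 7 members did. For a higher window against input the distances were 0 for AT1G26380 and AT1G62760, 2513 bp for AT1G26390, 2527 bp for EPF2, 5791 bp for AT1G26400, 11104 bp for AT1G26410 and 29198 bp for AT1G03890. The median over protein-coding genes was 11771 bp, and 24.8% had one within 3 kb. Among the members AT1G26380 and its neighbour AT1G26390, AT1G62760 and EPF2 had one within 3 kb.

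The wider surroundings were counted as well, without a test of the loci against each other. Of all 37898 bodies tested, 16.3% were higher in MBD7 ChIP than in MBD7 input and 15.6% lower. Of the 193 protein-coding bodies within 500 kb of EPF2, 53 were higher (27.5%) and 6 lower, with a median of 0.105. Around the cluster 23 of 280 were higher (8.21%) and 63 lower, with a median of -0.29. Around AT1G62760 7 of 243 were higher (2.88%) and 46 lower, with a median of -0.29. Around AT1G03890 6 of 296 were higher (2.03%) and 63 lower, with a median of -0.28. Of the bodies around EPF2, 40 had a larger difference than EPF2's own, and of those around AT1G62760 4 did. Of the upper flanks of the same 193 genes, 69 were higher (35.8%) and 4 lower, with a median of 0.28. Of all 37897 upper flanks tested, 7026 were higher and 5686 lower. Among those of the 193 genes, 46 had a larger difference than the upper flank of EPF2. At the 3 kb bounds the windows just inside and just outside had -0.46 and 0.22 below EPF2 and 0.82 and 0.80 above it. They had -0.39 and -0.29 below the cluster and -0.19 and -0.15 above it, -0.20 and -0.0026 below AT1G62760 and 0.06 and 0.43 above it, and -0.68 and -0.57 below AT1G03890 and -0.77 and -0.56 above it.

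The genes that carry out demethylation were examined in the same way. Of 14, 2 bodies were higher in MBD7 ChIP than in MBD7 input and 2 lower, where 16.3% and 15.6% of all bodies were. Those higher were MBD7 itself (1.07 ± 0.14) and ARP, an AP endonuclease of base excision repair (0.40 ± 0.15). The MBD7 body was also higher in MBD7 input than in WT input. DML2, a 5-methylcytosine glycosylase (-0.66 ± 0.15), and ZDP, a DNA 3′ phosphatase (-0.40 ± 0.15), were lower. DML2 was also lower than in WT ChIP (-0.78 ± 0.19; adjusted p = 0.0128), as were 2.71% of all bodies. ROS1, DME, IDM1, IDM2 and IDM3 did not pass over their bodies in this comparison. In WT ChIP against WT input, 1 of the 14 bodies was higher and 1 lower, where 2734 and 815 of 37898 bodies were. MBD7 had the largest difference there, 1.345, which is above its value in the tagged line. In the interaction 0 of the 14 bodies passed. With library size as the only scaling all 14 were lower in MBD7 ChIP than in MBD7 input. Over 16 other settings ARP did not pass in 7 and was lower in 1, library size alone, and ZDP did not pass in 13. The settings without either library of MBD7 input were among those in which they did not pass.

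Relatives of the members were compared with them by body in MBD7 ChIP against MBD7 input, where 16.3% of all bodies were higher and 15.6% lower. Of 23 other BBE-like genes, 2 were higher, AT4G20800 (0.54 ± 0.19) and AT5G44410 (0.50 ± 0.17), and 7 were lower, with a median of -0.40. Those lower were AT1G01980, AT1G30730, AT1G30740, AT4G20820, AT4G20830, AT4G20840 and AT5G44400, which did not pass in 2 to 9 of 16 other settings. The 4 members of the cluster ran from -0.18 to 0.36. None of the 10 other EPF and EPFL peptide genes was higher and EPFL6 was lower (-0.57 ± 0.19), with 2 at an unadjusted p under 0.05, none by DESeq2 and a median of -0.39 against 0.69 for EPF2. Of 3 other 12S globulin genes CRC was lower (-0.58 ± 0.21), and CRB, the gene named CRU2 above, was lower than in WT ChIP (-1.11 ± 0.32). The CRB body shares windows with the lower flank of AT1G03890, so its value is not independent of that flank's. Other settings were not counted for this CRB value. With DESeq2's size factors 3 of the BBE-like genes, 0 of the EPF and EPFL genes and 0 of the 12S globulin genes were lower. With library size alone all genes of these lists were. AT4G20800 and AT5G44410 each did not pass in 6 of 16 other settings, among them those without either library of MBD7 input, and were lower with library size alone. CRC did not pass in 9 of 16 other settings and EPFL6 in 10.

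For each member the 2 protein-coding genes of like depth with the most similar pattern of body levels over the 8 libraries were found by Euclidean distance of centred log2 cpm. For EPF2 they were BAG1 and AT2G04063 (distances 0.42 and 0.50, against a median of 1.83 over 9589 candidates). For AT1G26380 they were AT5G50990 and RARE1 (0.11 and 0.17), for AT1G26390 AT4G33140 and LACS7 (0.15 and 0.17), for AT1G26400 AT1G29435 and AT3G27700 (0.13 and 0.19) and for AT1G26410 MCT2 and AT4G09784 (0.19 and 0.19). AT1G03890 was closest to AT1G01453 and BBX9 (0.15 and 0.18). AT1G62760 was closest to AT5G46780 and AT2G19360 at 0.60 and 0.65, so its pattern had the most distant near neighbours of the 7.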

How the data were processed

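Raw counts of reads in windows of 1000 bp, placed every 500 bp on chromosomes 1 to 5 of TAIR10, were deposited by the authors for 8 libraries. The submitters' processing notes name TAIR10, featureCounts, SAMtools and Bowtie2. Versions and the counting of reads with several alignments were not given in the sources used here. Depth was 4971029 to 31459707 counts per library.

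Counts were tested with edgeR 4.0.16 in R 4.3.3 (quasi-likelihood test, TMM scaling, filterByExpr, two-sided, Benjamini-Hochberg adjustment, threshold 0.05), with 1 spread estimated over all 4 groups. A first fit ran over 232963 windows and a second over 113686 gene regions. A region's count sums overlapping windows, so a read can count 2 times. In the setting with every second window only, the windows do not overlap. Genes came from the RefSeq table for TAIR10.1 by locus tag, and all 50 genes of the lists matched. The flanks were to be split by strand, but no strand was used here and they were split by coordinate. Sequences were not analysed here.

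The members and lists were chosen with earlier results of these data known. The text names all members, each member's highest and lowest window, windows and listed genes that passed, and the 2 genes most like each member (log2 cpm with 0.1 added). Windows near EPF2 beyond 3 kb were chosen after their values were seen. The alternatives were DESeq2 1.42.0, other scalings, no filter, a replicate block, leaving out each library, fewer groups, every second window and flanks of 2 kb. With 2 libraries against 2, an exact permutation test of 1 value cannot go below 0.333, so none was used. Both fits were also run on counts simulated from the input means with 1 fixed spread, to check the direction of called changes. That simulation did not model the scatter of the ChIP libraries or the overlap of windows, so it cannot show how reliable the calls are here.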

Additional observations from a re-analysis of the deposited data

Results flagged for a closer look

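The window from 23239501 to 23240500 on chromosome 1 (TAIR10), past the upper end of AT1G62760, was picked out because the change from input to ChIP differed between the genotypes. The interaction was -2.239 ± 0.69 on the log2 scale (adjusted p = 0.0346, edgeR's quasi-likelihood test). It rests on 9 and 3 counts in WT ChIP and 5 and 3 in MBD7 ChIP, against 35 and 34 for the WT inputs and 35 and 25 for the MBD7 inputs. It did not pass in 6 of 13 other settings, among them DESeq2 and those without WT ChIP replicate 1 or MBD7 ChIP replicate 2.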

How the results depend on the processing

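Counts below are of members past the threshold. MBD7 ChIP against MBD7 input gave 11 windows, and 2 with DESeq2, 88 with library size alone and 4 with every second window (4 to 12 leaving out a library); its 3 regions became 5 with DESeq2's size factors, 20 with library size alone, 6 with only the groups compared and 1 with every second window (0 to 6). MBD7 ChIP against WT ChIP gave 1 window, and 0 with DESeq2, with only the groups compared and with every second window (0 to 1); its 1 region became 2 with DESeq2 or library size alone, and 0 with only the groups compared, every second window or flanks of 2 kb (0 to 2), and the 1 region with size factors was another one, higher. The interaction's 1 window became 0 with DESeq2 and every second window (0 to 1), and its 0 regions 2 with DESeq2, size factors or library size alone (0 to 2). WT ChIP against WT input gave 1 window, and 0 with DESeq2 and every second window, 3 with size factors or only the groups compared and 72 with library size alone (0 to 3); its 0 regions became 1 with DESeq2, size factors or only the groups compared and 17 with library size alone (0 to 2). The inputs gave 0 in every setting run. Library size alone put the median of all regions at -1.60 in MBD7 ChIP against MBD7 input and -1.14 in WT ChIP against WT input, against -0.15 and -0.03, and only it reversed region values that passed in either setting: in MBD7 ChIP against MBD7 input AT1G26380 body -1.09 and upper flank -1.28, AT1G26390 body -1.29, lower -1.11 and upper -1.24, AT1G26400 body -1.20, lower -1.33 and upper -1.34, AT1G26410 lower -1.34, EPF2 body -0.76, lower -1.15 and upper -0.56, and AT1G62760 body -0.81, lower -1.22 and upper -1.40; in WT ChIP against WT input AT1G03890 lower -0.67, AT1G26380 lower -1.03 and upper -0.81, AT1G26390 body -0.78 and upper -1.01, AT1G26400 body -0.9997 and lower -0.81, AT1G26410 body -1.05, EPF2 lower -0.94 and AT1G62760 upper -0.60. The cause of the other changes was not tested. Of 1659 region values over all settings, 1556 kept their direction or stayed below the threshold, 26 lost the call, 52 gained one and 25 reversed. With the replicate number as a block the counts were 11, 1, 1, 1 and 0 windows and 3, 1, 0, 0 and 0 regions, in the order above with the inputs last; same-numbered libraries' deviations correlated by -0.008 to 0.0405, so the numbers are not taken as pairs. WT ChIP depth, with a floor of 3 counts at 0.771 and 0.976 cpm, limits every comparison with it.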
